A study of Mus musculus with 4 samples.

Results

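The genes described here are 30 nuclear genes of mitochondria and of redox defence, with Sod1 and Ccs, the copper-zinc superoxide dismutase and its copper chaperone, among them. They were taken by gene symbol from a list of 31 names, out of 36186 rows of the deposited table. Pyruvate carboxylase, Pc, is on that list and was not analysed here. Mitochondria make ATP through a chain of respiratory complexes whose subunits are encoded mostly in the nucleus, imported through translocases of the outer and inner membrane and assembled with a few proteins made on the mitochondrion's own ribosomes. Electrons that leak from the chain give superoxide, which superoxide dismutases remove. The organelle also oxidises fatty acids, makes haem and handles amino acids.

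RNA was sequenced from cells of the kidney-ureter junction of mutant SV/129 mouse embryos at E13.5. The embryos carry the label PTC-/-MM, and in them HH-GLI signalling is constitutively active in the metanephric mesenchyme, the tissue around the budding ureter, per the series title. All libraries share this genotype, and no normal embryos enter the comparison. The sources used here name neither the driver of the deletion nor any pooling of embryos. Antibody sorting gave PTC2+ cells and PTC2- cells, with 2 libraries of each kind. Values are given for replicate 1 first and replicate 2 second. The design sets these populations against each other within mutant tissue. The labels do not state that replicates are different embryos; the spread behind each p-value is that between these libraries and may be technical.

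The 30 rows lie in 3 chromosome stretches, 18 of them on chromosome 16 between Naa60 and Mrps6, 8 on chromosome 19 between Ighmbp2 and Pygm, and 4 on chromosome 8 between Insr and Agpat5. Only in these stretches, 1303 rows in all, were names taken to fit values, since elsewhere genes that every cell uses, such as the ribosomal protein gene Rps6, are listed at 0, and the stretches had been chosen from the mean level of their rows. That the members are expressed is therefore no finding. Malat1, an abundant nuclear RNA, lies 5 rows from Slc25a45 in the table and stood between 11618 and 13656 NRPKM. NRPKM is an RPKM, a read number per length of gene and size of library, that the authors normalized further. The column sums were 283806 to 288752 NRPKM. The gene of the sorted protein was not analysed here, so the sort was not checked against it.

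Of the 30 genes 1, the mitochondrial carrier Slc25a45, was higher in PTC2+ cells past the test over the whole table. Carkd, an enzyme that repairs damaged NAD(P)H, passed only when p-values were adjusted over the stretches alone, and 0 members were lower in limma by either adjustment. In the same direction but short of the threshold lay Pet100, Cpt1a and Ndufs8, while Trmt10c, Mrpl49 and Fam162a leaned the other way. At an adjusted p under 0.05 over the table, 1 of 30 members was called. Among all 11807 tested rows the share was 2.92% (2.44% in the higher and 0.483% in the lower direction), and of the 711 tested stretch rows 6.19% (5.77% and 0.422%). Adjusted over the stretches it was 2 of 30, both higher, where 11.1% of stretch rows were called (9.14% and 1.97%). At an unadjusted p under 0.05 in limma there were 8 of 30 members, 5 higher and 3 lower, against 27.3% of stretch rows (17.4% and 9.85%).

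The populations did not overlap in 14 members, 7 higher and 7 lower in PTC2+ cells. That was so in 59.6% of tested stretch rows (30.2% higher and 29.4% lower) and 49.5% of all tested rows (24.6% and 24.9%). The median log2 difference, PTC2+ minus PTC2- on the log2(NRPKM + 1) scale, was 0.023 over the members, -0.027 over the stretch rows and -0.030 over all tested rows. The sign of the members' median rests on the scaling, since it was -0.0084 with the libraries scaled to the median ratio of stretch rows. In size, the median difference was 0.25 among members and 0.37 among stretch rows. For 18 members the 95% interval of the difference lay inside a 2-fold change either way, as it did in 45.4% of stretch rows. Each member stood at 1 NRPKM or more in every library, the lowest value being 1.22 NRPKM for Bdh1, so all 30 passed the filter on low values.

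**Figure D1:**
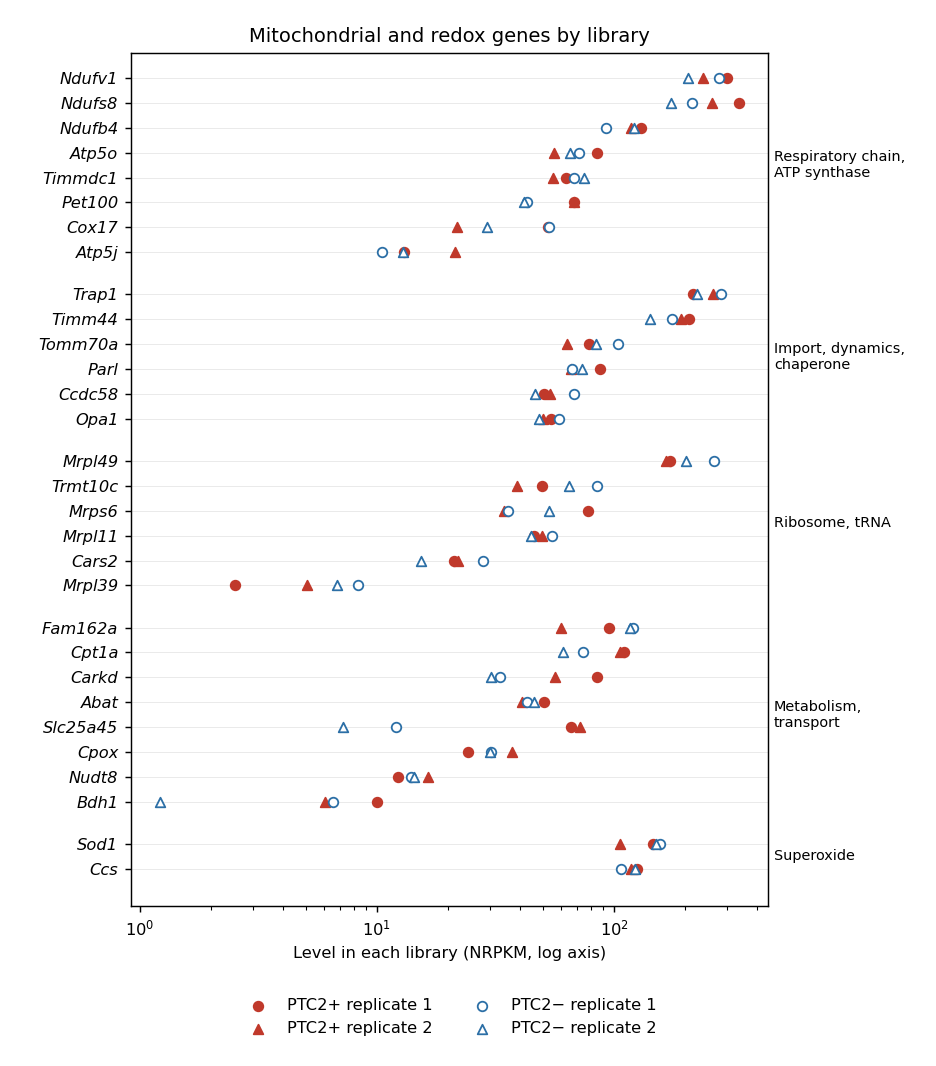
Level of each member in NRPKM (log axis) in the 2 PTC2+ libraries (filled red) and the 2 PTC2- libraries (open blue), grouped by role and ordered by mean level. The points of a gene mostly lie close together, with Slc25a45 as the widest separation of the populations, 66.0 and 71.7 NRPKM against 12.1 and 7.18.

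The largest difference was in the transport group. Slc25a45, of the carrier family that moves metabolites across the mitochondrial inner membrane, stood at 66.0 and 71.7 NRPKM for PTC2+ against 12.1 and 7.18 for PTC2-. Both PTC2+ libraries were far above both PTC2- libraries, and the means differed 7.16-fold. The log2 difference was 2.76 (SE 0.28, 95% interval 2.05 to 3.46), with a limma adjusted p = 0.0188 over the table and 0.00557 over the stretches. From the highest down, the difference ranked 19 of the 711 stretch rows. The call was lost without PTC2+ replicate 1 (log2 difference 2.82, limma adjusted p = 0.240), PTC2+ replicate 2 (2.70, adjusted p = 0.259) and PTC2- replicate 2 (2.42, adjusted p = 0.0692), and with no filter on low values (adjusted p = 0.342). Without PTC2- replicate 1 it held, with a difference of 3.09.

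Carkd, now named Naxd, encodes the dehydratase that turns hydrated NADH and NADPH back into the working cofactors. It stood at 85.0 and 56.2 NRPKM for PTC2+ against 33.0 and 30.3 for PTC2-. The populations did not overlap, and the PTC2+ libraries lay further apart from each other than the PTC2- libraries. Its log2 difference was 1.10 (SE 0.24, 95% interval 0.50 to 1.71; limma adjusted p = 0.0860 over the table, 0.0472 over the stretches). Cars2, the mitochondrial cysteinyl-tRNA synthetase, is the next row of the table, and had a mean of 21.6 ± 0.638 NRPKM for PTC2+ against 21.7 ± 9.01 for PTC2- (SD, n = 2 each). Carkd exceeded Cars2 by 4.02 and 2.55 times for PTC2+ and by 1.17 and 1.97 times for PTC2-.

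Markers of several cell types were listed with earlier results of these data known, so their counts describe the lists and test nothing. Among tested stretch rows 5.77% were higher over the table and 9.14% over the stretches, and 0.422% and 1.97% were lower. Of 10 leukocyte markers in the stretches, 7 were higher in PTC2+ cells over the table and 8 over the stretches. The 10 were Cd86, Cd80, Hcls1, Unc93b1, Nrros, Klhl6, Cd200r1, Ptprcap, Tbc1d10c and Samsn1. Their summed level was 741 to 830.1 NRPKM in PTC2+ and 59.0 to 62.6 NRPKM in PTC2- libraries, and Cd86 and Cd200r1 were listed at 0 in both PTC2- libraries. Of 6 mesenchymal and stromal markers 2 were lower over the table and 3 over the stretches (summed level 374 to 470.3 against 891 to 893 NRPKM). Of 6 epithelial markers, 5 of them tested, 1 was higher (180.03 to 194 against 77.2 to 79.3 NRPKM). Among 5 endothelial markers and 5 markers of dividing cells 0 passed in limma. In each, 1 had an unadjusted p under 0.05, as did 27.3% of tested stretch rows. Of 5 muscle markers, 4 of them tested, 1 was lower over the stretches. The part of these cells in the values of Slc25a45 and Carkd was not tested. In sorted bulk RNA, fewer cells of a type and less RNA per cell cannot be told apart.

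The promoters of Slc25a45 and Carkd are shown because they are the members that passed a test. Each runs from 250 bases before to 50 bases after a transcript start, from RefSeq on GRCm38.p6, a later build than that of the files. Capitals mark CCGGAAGT, the core bound by ETS factors such as GABP, on either strand. The NRF1 and YY1 motifs were also searched on both strands, and none of the 3 was found in the Slc25a45 window at chr19:5877572-5877871 (plus strand). Of the windows listed for Carkd, the one at chr8:11497318-11497617 (plus strand) holds the ETS core next to the start.
Slc25a45: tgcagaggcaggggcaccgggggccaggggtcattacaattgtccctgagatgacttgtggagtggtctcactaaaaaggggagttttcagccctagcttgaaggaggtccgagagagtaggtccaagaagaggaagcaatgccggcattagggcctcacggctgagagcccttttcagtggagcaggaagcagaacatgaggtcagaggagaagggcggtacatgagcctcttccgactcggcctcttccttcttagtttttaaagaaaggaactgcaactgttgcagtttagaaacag
Carkd: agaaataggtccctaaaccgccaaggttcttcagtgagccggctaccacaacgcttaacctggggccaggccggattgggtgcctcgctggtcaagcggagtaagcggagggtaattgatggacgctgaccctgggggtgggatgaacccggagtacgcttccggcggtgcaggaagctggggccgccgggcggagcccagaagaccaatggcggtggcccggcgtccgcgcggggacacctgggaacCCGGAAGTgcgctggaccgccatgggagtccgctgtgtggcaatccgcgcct
These letters describe the windows and do not show that a factor binds.

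Cpt1a, carnitine palmitoyltransferase, which commits long-chain fatty acids to oxidation, stood at 110.4 and 106 NRPKM for PTC2+ against 73.8 and 61.0 for PTC2-. Both PTC2+ values lay above both PTC2- values, with little spread within PTC2+. The log2 difference was 0.68 (SE 0.17, 95% interval 0.27 to 1.10; limma adjusted p = 0.104). Fam162a, a hypoxia-responsive mitochondrial protein, stood at 95.5 and 59.9 NRPKM for PTC2+ against 120.5 and 116 for PTC2-. The PTC2+ libraries were both lower but far apart, and the log2 difference of -0.64 (SE 0.24, 95% interval -1.25 to -0.034; limma adjusted p = 0.231) was smaller than the gap of 0.67 between the PTC2+ replicates.

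The other metabolic members did not separate the populations. Abat, which degrades the transmitter GABA, had a mean of 45.7 ± 6.602 NRPKM for PTC2+ against 44.3 ± 2.26 for PTC2- (SD, n = 2 each). Cpox, a haem synthesis enzyme, averaged 30.6 ± 9.03 and 30.2 ± 0.232 NRPKM. For Nudt8, a nudix hydrolase of mitochondria, the means were 14.3 ± 2.98 and 14.2 ± 0.249 NRPKM. Bdh1, which interconverts the ketone bodies, had as large a log2 difference as Carkd, 1.10, with 10.02 and 6.02 NRPKM for PTC2+ against 6.55 and 1.22 for PTC2-. Its populations overlapped, and the 95% interval ran from -0.57 to 2.78. Leaving out PTC2- replicate 2 gave a difference of 0.22, and leaving out PTC2- replicate 1 gave 1.99. A pseudocount of 5 NRPKM gave 0.60 for Bdh1 and 1.02 for Carkd.

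**Figure D2:**
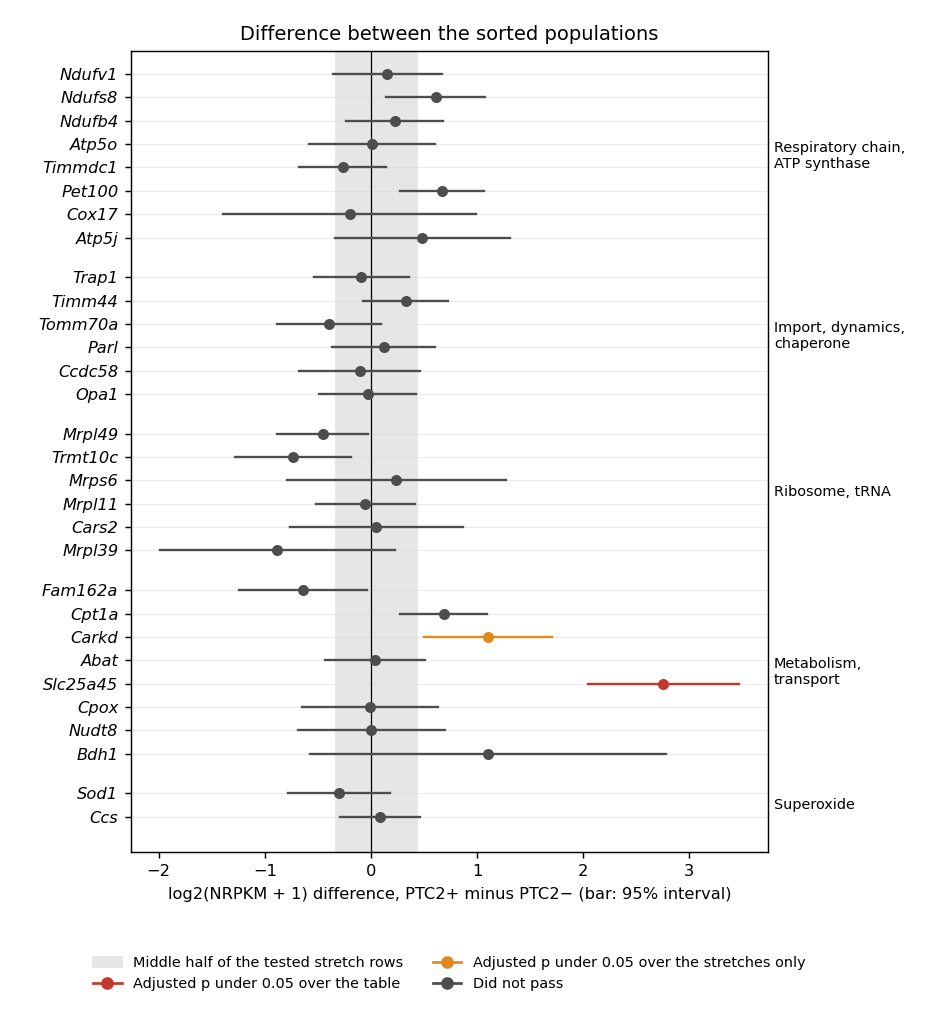
Log2 difference of each member on the log2(NRPKM + 1) scale, PTC2+ minus PTC2-, with its 95% interval from limma (bars). The shaded band runs between the quartiles of the tested stretch rows, -0.33 to 0.44. Slc25a45 at 2.76 (red, adjusted over the table) and Carkd at 1.10 (orange, adjusted over the stretches only) are the points that passed a test.

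In the respiratory chain group 0 of 8 members passed either adjustment in limma, with 2 at an unadjusted p under 0.05. Of tested stretch rows 27.3% had such a p. Ndufv1, the complex I subunit that takes electrons from NADH, had the highest mean level of the 30 members per gene length, 255 NRPKM over all libraries, and a mean of 268 ± 44.3 NRPKM for PTC2+ against 242 ± 51.4 for PTC2- (SD, n = 2 each). Ndufs8, an iron-sulphur subunit that passes electrons on towards ubiquinone, stood at 335 and 259 NRPKM for PTC2+ against 213 and 175 for PTC2-. Its populations did not overlap, and the log2 difference was 0.61 (SE 0.19, 95% interval 0.14 to 1.08; limma adjusted p = 0.166). Within each library Ndufs8 exceeded Ndufv1 in PTC2+ (ratio 1.12 and 1.09) and lay below it in PTC2- cells (0.767 and 0.849). Ndufb4, an accessory subunit of the membrane arm, averaged 124 ± 7.997 and 107 ± 20.5 NRPKM. The ratio of Ndufs8 to Ndufb4 overlapped between populations, at 2.59 and 2.19 in PTC2+ against 2.31 and 1.44 in PTC2- libraries. Timmdc1, a complex I assembly factor, stood at 62.5 and 55.4 NRPKM for PTC2+ against 67.6 and 74.6 for PTC2-, a log2 difference of -0.27 (95% interval -0.68 to 0.15).

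Pet100, an assembly factor of cytochrome c oxidase, stood at 67.6 and 68.0 NRPKM for PTC2+ against 42.9 and 41.8 for PTC2-. The populations did not overlap, and the larger of its gaps between replicates, 0.035 on the log2 scale, was the smallest of the 30 members. The log2 difference was 0.67 (SE 0.16, 95% interval 0.27 to 1.06; limma adjusted p = 0.102). In the GRCm38 gene table Pet100 shares bases with its neighbour Pcp2, listed at 13.7 and 25.1 NRPKM for PTC2+ against 6.91 and 9.57 for PTC2-. The sources used here do not say whether counting kept the strand, and without it reads of overlapping genes cannot be told apart.

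Cox17, which hands copper to cytochrome c oxidase, stood at 52.6 and 21.8 NRPKM for PTC2+ against 53.0 and 29.0 for PTC2-. Replicate 2 was about as low in both populations, and the log2 difference of -0.20 (SE 0.48, 95% interval -1.39 to 0.99; limma adjusted p = 0.867) leaves a change of either sign possible. Of the ATP synthase, Atp5o, in the stalk that holds the catalytic head, had a mean of 70.3 ± 20.8 NRPKM for PTC2+ against 68.4 ± 4.37 for PTC2- (SD, n = 2 each). Atp5j, another stalk subunit, stood lower, at 13.0 and 21.3 NRPKM for PTC2+ against 10.5 and 12.8 for PTC2-. The PTC2+ values of Atp5j were higher, replicate 1 only just. Atp5o exceeded Atp5j by 2.61 to 6.81 times within a library. The Atp5j gene shares bases with Gabpa.

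In the import and membrane group 0 of 6 members passed in limma, with 0 at an unadjusted p under 0.05. Of tested stretch rows 27.3% had such a p. With the replicate number as a block 2 had it, Timm44 and Tomm70a, as did 2436 of all 11807 tested rows. Timm44, which tethers the import motor at the inner membrane, stood at 206 and 191 NRPKM for PTC2+ against 175 and 142 for PTC2-. Both PTC2+ values were higher, with a log2 difference of 0.33 (SE 0.16, 95% interval -0.071 to 0.73; limma adjusted p = 0.333). Tomm70a, a receptor of the outer membrane for incoming proteins, stood at 78.6 and 63.2 NRPKM for PTC2+ against 104 and 83.5 for PTC2-. Here both PTC2+ values were lower, by -0.40 on the log2 scale (SE 0.20, 95% interval -0.88 to 0.090; limma adjusted p = 0.337). Trap1, the mitochondrial HSP90 chaperone, averaged 238 ± 32.7 and 254 ± 42.3 NRPKM in PTC2+ and PTC2- cells, and its gene shares bases with Dnase1. Opa1, the GTPase that fuses inner membranes, averaged 52.1 ± 2.995 and 53.5 ± 7.35 NRPKM, and Parl, a rhomboid protease of the inner membrane, 76.8 ± 15.3 and 70.0 ± 4.93 NRPKM (SD, n = 2 each). Ccdc58 averaged 52.2 ± 2.25 and 57.2 ± 15.3 NRPKM.

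In the ribosome and RNA group 0 of 6 members passed in limma, with 2 at an unadjusted p under 0.05. In this group 3 were lower in both PTC2+ libraries. Of tested stretch rows 27.3% had such a p, and 29.4% were lower without overlap. Trmt10c, a subunit of the RNase P that cuts mitochondrial transcripts at their tRNAs, stood at 49.5 and 39.1 NRPKM for PTC2+ against 84.7 and 64.6 for PTC2-. The populations did not overlap, and the log2 difference was -0.74 (SE 0.22, 95% interval -1.28 to -0.19; limma adjusted p = 0.151). Mrpl49, of the large ribosomal subunit, stood at 171 and 165 NRPKM for PTC2+ against 265 and 202 for PTC2-. All PTC2+ values were lower, with a log2 difference of -0.46 (SE 0.17, 95% interval -0.89 to -0.024; limma adjusted p = 0.231). Mrpl49 shares bases with Syvn1, listed at 139 to 146 NRPKM.

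Mrpl39, also of the large subunit, was the member of lowest mean level, with 2.52 and 5.09 NRPKM for PTC2+ against 8.34 and 6.80 for PTC2- (log2 difference -0.88, 95% interval -1.99 to 0.22). The PTC2+ values were lower, though 0.79 apart on the log2 scale. Mrpl11 averaged 47.8 ± 2.39 and 49.8 ± 7.01 NRPKM in PTC2+ and PTC2- cells (SD, n = 2 each). Mrps6, of the small subunit, stood at 77.9 and 34.4 NRPKM for PTC2+ against 35.8 and 53.4 for PTC2-, so its order between populations depended on the replicate. It shares its locus with Slc5a3.

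Trmt10c, Tomm70a and Timmdc1, all of which were lower in both PTC2+ libraries without passing the test, had the ETS core in their promoter windows, and the windows are printed for that reason. They lie at chr16:56037737-56038036, chr16:57121464-57121763 and chr16:38522614-38522913 (RefSeq, GRCm38.p6; minus, plus and minus strand, printed 5′ to 3′ along the gene). Capitals mark CCGGAAGT or its reverse complement.
Trmt10c: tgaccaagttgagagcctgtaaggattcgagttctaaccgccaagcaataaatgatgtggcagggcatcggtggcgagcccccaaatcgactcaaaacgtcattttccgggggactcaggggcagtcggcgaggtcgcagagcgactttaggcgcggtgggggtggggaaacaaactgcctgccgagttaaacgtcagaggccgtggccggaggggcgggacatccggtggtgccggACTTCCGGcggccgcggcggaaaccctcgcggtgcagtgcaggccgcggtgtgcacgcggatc
Tomm70a: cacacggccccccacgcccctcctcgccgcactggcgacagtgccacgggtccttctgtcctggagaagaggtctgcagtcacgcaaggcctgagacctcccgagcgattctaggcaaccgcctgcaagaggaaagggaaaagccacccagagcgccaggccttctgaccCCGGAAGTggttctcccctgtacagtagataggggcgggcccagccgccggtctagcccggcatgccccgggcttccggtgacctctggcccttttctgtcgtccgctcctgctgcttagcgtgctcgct
Timmdc1: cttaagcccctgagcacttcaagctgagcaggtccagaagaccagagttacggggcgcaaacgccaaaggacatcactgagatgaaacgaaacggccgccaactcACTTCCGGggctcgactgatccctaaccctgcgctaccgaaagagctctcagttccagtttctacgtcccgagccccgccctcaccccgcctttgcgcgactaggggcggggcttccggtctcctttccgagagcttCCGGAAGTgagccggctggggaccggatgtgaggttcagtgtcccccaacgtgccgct
Promoter windows were found for 27 of the 30 members. The core was in 5 of these 27, Carkd, Parl, Timmdc1, Tomm70a and Trmt10c, and in 7.05% of the 667 protein-coding genes of the stretches and 5.69% of all 17492 protein-coding genes with a window. Both backgrounds, here and for the other motifs, include genes whatever their level, while every member passed the filter on low values. The shares are thus of unlike sets, and no background of expressed genes was made. Of the 5, Carkd was higher, 3 were lower in both PTC2+ libraries, and Parl overlapped between populations. Lower without overlap were 29.4% of tested stretch rows and 24.9% of all tested rows. The other 4 members that were lower in both PTC2+ libraries, Mrpl49, Fam162a, Mrpl39 and Sod1, had no such core in their windows. The NRF1 motif was in 4 of 27 (Atp5o, Mrpl39, Ndufb4 and Opa1) against 9.60% of stretch genes and 7.17% of all genes. The YY1 motif was in Atp5j alone of the 27, against 1.80% and 1.41%. The NRF1 and YY1 counts change with the form of the motif searched, shorter forms having been tried once. A motif match does not show that a factor acts there.

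Gabpa, the DNA-binding subunit of GABP, has its own row in the chromosome 16 stretch. It stood at 99.3 and 94.3 NRPKM for PTC2+ against 149 and 139 for PTC2-, both PTC2+ values being lower. The log2 difference was -0.57 (SE 0.14; limma adjusted p = 0.111 over the table, 0.0610 over the stretches). Nrip1, a corepressor of nuclear receptors that acts on metabolic genes, stood at 157 and 150.3 NRPKM for PTC2+ against 99.4 and 91.4 for PTC2-. Its difference of 0.68 (SE 0.14) passed over the stretches (limma adjusted p = 0.0396) and not over the table (0.0755). Bach1, a haem-sensing repressor of antioxidant genes, averaged 54.7 and 40.5 NRPKM (limma adjusted p = 0.316).

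Sod1, which turns superoxide into hydrogen peroxide in the cytosol and the intermembrane space, stood at 146 and 106 NRPKM for PTC2+ against 156 and 149.9 for PTC2-. Both PTC2+ values were lower, replicate 1 only slightly. The log2 difference was -0.30 (SE 0.19, 95% interval -0.78 to 0.18; limma adjusted p = 0.464), less than the gap of 0.46 between the PTC2+ replicates. It was -0.53 without PTC2+ replicate 1 and -0.067 without PTC2+ replicate 2. Ccs, which loads copper into Sod1, stood at 125 and 118 NRPKM for PTC2+ against 107 and 123 for PTC2-, with overlap. Its log2 difference was 0.083 (SE 0.15, 95% interval -0.29 to 0.46; limma adjusted p = 0.819). The ratio of Sod1 to Ccs was 1.17 and 0.892 in PTC2+ and 1.46 and 1.22 in PTC2- libraries.

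Other genes of mitochondria in the stretches were counted from a list of 16, all of them tested. None passed either adjustment in limma, 2 having an unadjusted p under 0.05, against 27.3% of tested stretch rows. Yars2, the mitochondrial tyrosyl-tRNA synthetase, stood at 17.6 and 20.8 NRPKM for PTC2+ against 30.3 and 29.998 for PTC2- (log2 difference -0.63, limma adjusted p = 0.195). Nsun3, which methylates a mitochondrial tRNA, averaged 35.8 ± 3.50 and 18.3 ± 9.49 NRPKM (SD, n = 2 each; log2 difference 1.02, limma adjusted p = 0.219). The median log2 difference of the 16 was -0.076. Of a list of 10 redox and detoxification genes, Aldh3b1, an aldehyde dehydrogenase, passed over the stretches only, with 24.6 and 16.5 NRPKM for PTC2+ against 5.32 and 7.61 for PTC2- (log2 difference 1.52, SE 0.35, limma adjusted p = 0.0489 over the stretches and 0.0913 over the table). Among tested stretch rows 11.1% passed over the stretches. Hmox2 had 188 and 203 NRPKM for PTC2+ against 146 and 110 for PTC2- (log2 difference 0.62, limma adjusted p = 0.149 over the table). Without overlap 4 of the 10 were higher and 1 was lower, against 30.2% and 29.4% of tested stretch rows. Gstp1 and Gstp2, glutathione transferases so alike that their reads may be shared, averaged 503 and 252 NRPKM in PTC2+ and 391 and 190 in PTC2- cells. Their adjusted p over the table in limma was 0.390 and 0.259.

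The files hold no read counts, so precision was judged from the replicates and from an estimated value of 1 read. In short pseudogenes and predicted genes the most common low value stood for 0.645 to 0.877 NRPKM per read in a gene of 1 kb, and 17 to 37 low values per library lay within 0.5% of it, out of 149 to 201. By this estimate, the median member had 102.5 reads in its shallowest library, and 8 members had fewer than 50 reads there. The length used was that of the longest transcript marked principal in GENCODE. A member expressed from a shorter form would have fewer reads than estimated. Bdh1 had the fewest, 4.3, followed by Mrpl39 with 6.7, while Trap1 had 581. For Slc25a45 the PTC2- libraries held about 46.4 and 20.3 reads. The larger of the gaps between replicates had a median of 0.73 on the log2(NRPKM + 1) scale among the 8 shallow members and 0.38 among the other 22. In 11 of 30 members the difference between populations exceeded both replicate gaps, as it did in 47.4% of stretch rows and 38.1% of all tested rows.

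**Figure D3:**
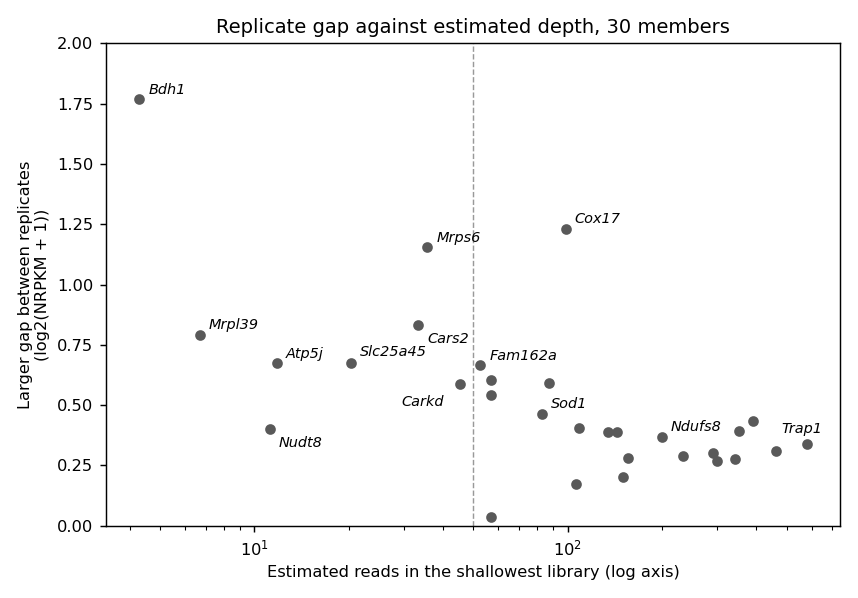
For each of the 30 members, the larger of the 2 gaps between replicates of a population (log2(NRPKM + 1) scale) against the estimated reads in its shallowest library (log axis). The dashed line marks 50 reads. Bdh1, at 4.3 reads, has the widest gap at 1.77. Cox17 has a gap of 1.23 at an estimated 98.5 reads, a depth that rests on a transcript length of 3690 bases.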

How the data were processed

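The labels' protocols name the NuGEN Ovation RNA-Seq System for amplification of sorted-cell RNA, followed by Nextera XT library preparation. The submitters' processing notes list TopHat2 2.0.5, TopHat, Cufflinks 2.0.0 and mm9; which tool counted reads, with what gene models and strand setting, was not given in the sources used here. Each library has, as deposited by the authors, a normalized RPKM per gene, whose exact formula is likewise unknown. Whole reads were not recovered, so no count model was used and depth is an estimate.

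Log2(NRPKM + 1) was tested with limma 3.58.1 (R 4.3.3; eBayes with a mean-variance trend), keeping rows that reached 1 NRPKM in 2 or more of the 4 libraries. Benjamini-Hochberg adjustment ran over all tested rows, threshold 0.05, and again over the tested stretch rows of the same fit. The code was tested on simulated data. All 30 members were found by identifier in NCBI's GRCm38 gene table, used for names and overlaps; transcript lengths came from GENCODE M21. The step of 1 read used genes under 3000 bases. Every member is named; those that passed either adjustment, those of smallest unadjusted p up to 10 in all, and Sod1, Ccs and Cox17 are given in full. The members, lists, markers and stretches were chosen with earlier results of these data known. Alternatives were other pseudocounts, filters and scalings, no trend, a replicate block and leaving out each library.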

Additional observations from a re-analysis of the deposited data

How the results depend on the processing

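Of 390 alternative values of single members, 361 kept their direction and side of the threshold, 4 lost the call (all of Slc25a45), 1 gained it (Carkd, adjusted over the stretches) and 24, in 14 members, changed sign. The members changed were 1 with a pseudocount of 0.1 or 5 NRPKM, a filter of 5 NRPKM, no trend or either scaling, 0 with no filter and 2 adjusted over the stretches, each of them higher in PTC2+ cells. Leaving out 1 library gave 0 to 1 members changed, 0 to 1 higher and 0 lower; the lone library was then taken to vary like the other population. The rows of the whole table changed (345) were 214 with a pseudocount of 0.1, 200 with no trend and 2 with no filter, where many more rows were tested, and 0 to 42 with 1 library left out. The median log2 difference of the members lay between -0.036 and 0.13 with 1 library left out. With no filter the unadjusted p of Slc25a45 in limma also rose, from 0.000102 to 0.0036, at the same log2 difference. The cause of these moves was not tested.

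No member that changed sign had passed a test. Scaled to the median ratio of stretch rows, Atp5o was at -0.022 and Nudt8 at -0.027. With 1 library left out, the log2 difference ran from -0.11 to 0.18 for Abat, -0.29 to 0.31 for Atp5o, -0.36 to 0.47 for Cars2, -0.38 to 0.17 for Ccdc58, -0.018 to 0.18 for Ccs, -0.82 to 0.41 for Cox17, -0.30 to 0.29 for Cpox, -0.19 to 0.089 for Mrpl11, -0.34 to 0.82 for Mrps6, -0.063 to 0.37 for Ndufv1, -0.20 to 0.20 for Nudt8, -0.17 to 0.11 for Opa1, -0.083 to 0.32 for Parl and -0.26 to 0.080 for Trap1. Other members kept their sign but moved by over 1.5 times from the value with all libraries. These were Atp5j (0.15 to 0.82), Bdh1 (0.22 to 1.99), Fam162a (-0.97 to -0.31), Mrpl39 (-1.28 to -0.49) and Mrpl49 (-0.65 to -0.26). Ndufb4 (0.027 to 0.42), Sod1 (-0.53 to -0.067), Timm44 (0.18 to 0.48) and Tomm70a (-0.55 to -0.24) did so too. Carkd (0.81 to 1.40), Ndufs8 (0.42 to 0.79), Timmdc1 (-0.35 to -0.18) and Trmt10c (-0.93 to -0.54) moved less from that value. The adjustment over the stretches, on which the call of Carkd rests, was run on the main fit alone. There the unadjusted p of Carkd in limma was 0.00461. It was 0.0211 with no trend, 0.028 with no filter and 0.00217 with a replicate block.

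The titles give PTC2+ and PTC2- libraries the same numbers, and the column names join the same pairs by a second number, without saying what either marks. The correlation between the deviations of a pair from the population means was 0.023 over tested rows, 0.092 over stretch rows and 0.12 over the members. A correlation does not register a shift that all rows of a set share. In replicate 2, 20 of the 30 members were lower than in replicate 1 for PTC2+ and 22 for PTC2-. The stretch rows made up 22.9% and 21.8% of the column sum for PTC2+, and 22.1% and 20.5% for PTC2-. With the number as a replicate block, 332 rows and 1 member, Slc25a45, changed. At an unadjusted p under 0.05 there were 10 members in place of 8, Timm44 (limma adjusted p = 0.231) and Tomm70a (limma adjusted p = 0.218) being the additions. Of all 11807 tested rows 2436 had such a p with the block, in place of 2335.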
